A study of Homo sapiens with 51 samples.

Results

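The genes described here encode the proteins of the human mitochondrial ribosome. They were taken as all protein-coding genes whose symbol is MRPL or MRPS followed by a number and at most 1 letter from A to C, a rule that uses no measured value. It found 78 genes among 60664 gene identifiers, of which 19890 were protein-coding. By name 49 are MRPL and 29 are MRPS genes. By place in the ribosome 30 encode large-subunit proteins with a bacterial counterpart, 21 large-subunit proteins found only in mitochondria, 16 small-subunit proteins with a bacterial counterpart and 10 small-subunit proteins found only in mitochondria. MRPS30 and MRPS18A, in spite of their names, belong to the large subunit. MRPS36, which encodes a part of the 2-oxoglutarate dehydrogenase complex, was put in none of these groups.

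The mitochondrial ribosome translates the few mRNAs of the mitochondrial genome, all of which encode core subunits of the respiratory chain and the ATP synthase. Its ribosomal RNAs are made in the organelle, whereas its proteins are encoded in the nucleus, translated in the cytosol and imported. Compared with its bacterial ancestor it has lost ribosomal RNA and gained proteins of its own, and loss of single members causes respiratory chain defects in humans.

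The 51 libraries are rRNA-depleted, strand-specific RNA-seq of K562 cells, an established human chronic myelogenous leukaemia line. The guide set (16 libraries) used CRISPR interference, in which a catalytically dead Cas9 represses a promoter. Its guides were against DDX3, a DEAD-box RNA helicase (sgDDX3), against CNOT1, on which the CCR4-NOT deadenylase is built (sgCNOT1), against NUP160, a nuclear pore protein (sgNUP160), or against Gal4, a yeast gene, as the control (sgGal4). The transgene set (35 libraries) held cells in which endogenous DDX3 was knocked down and a lentiviral DDX3 was expressed, either wild type (WT) or 1 of 6 mutants (T532M, R534S, R376C, R351W, R326H and G325E). It also held cells with sgDDX3 and no DDX3 transgene (no transgene) and uninfected cells, whose place in this set is an assumption. Every group had 2 libraries of a cytoplasmic-labelled and 2 of a nuclear-labelled fraction, except that R376C had 1 library of each here. The labels do not say that replicates were separate cultures, so p-values measure the spread between these libraries, which may be technical.

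The second R376C nuclear-labelled library stood apart and was left out. Reads outside genes made up 62.8% of its uniquely mapped reads, whereas the rest of the transgene set's nuclear-labelled libraries had 7.65% to 10.5%, and members made up 0.229% of its gene counts, where the rest had 0.402% to 0.474%. Both values lay within the ranges of the cytoplasmic-labelled libraries, in which reads outside genes made up 50.4% to 69.2% and members 0.197% to 0.242%. The RNA content of the fractions ran against their labels in the other 50 libraries. MALAT1, a long non-coding RNA held in the nucleus, had 19392 to 34040 CPM (gene counts per unit of library total, scaled by the trimmed mean of M-values, TMM, within each set and fraction) in the cytoplasmic-labelled libraries and 1613 to 3625 CPM in the nuclear-labelled ones. Whether the fraction labels were exchanged on deposit cannot be told from the files, so fractions are named as labelled, and with exchanged labels every fraction ratio below would change sign. The erythroid genes GATA1, TAL1, KLF1 and TFRC were detected in all 50 libraries, while the embryonic globin gene HBE1 was listed at 0 in all of them. The globin genes HBG1 and HBG2 were low too, with medians of 1.73 and 0.514 CPM in the cytoplasmic-labelled and 8.39 and 5.05 CPM in the nuclear-labelled libraries. Of the genes that mark other cell types, MS4A1, CDH1, COL1A2 and PDGFRA were at or near 0, and EPCAM had 12.7 to 39.7 CPM. Gene counts per library ran from 2354961 to 10386022 in the cytoplasmic-labelled and from 3716156 to 21365002 in the nuclear-labelled libraries. The targeted genes were low where a guide addressed them. In nuclear-labelled libraries DDX3X had 262 and 277 CPM with sgGal4 and 40.6 and 43.4 with sgDDX3, and 284 and 298 in uninfected cells and 147 and 147 without transgene. CNOT1 had 44.8 and 44.4 CPM with sgCNOT1 against 825 and 833, and NUP160 had 15.8 and 12.6 with sgNUP160 against 152 and 154.

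Members made up a small share of each library, 0.197% to 0.242% of gene counts in the cytoplasmic-labelled and 0.367% to 0.474% in the nuclear-labelled libraries. Levels between genes are given per kilobase of the longest principal transcript. In the nuclear-labelled libraries of sgGal4 cells the median member stood at 37.6 CPM per kilobase, and the member at the 90th percentile was 13.6 times the member at the 10th. MRPL37, a large-subunit protein found only in mitochondria, was highest at 169.9 ± 7.2 CPM per kilobase (mean ± SD, n = 2), followed by MRPS15 (131.4 ± 0.5), which has a bacterial counterpart that binds the small ribosomal RNA. MRPS34 (96.6 ± 1.4), MRPL21 (79.3 ± 7.0) and MRPS18B (78.9 ± 4.6) came next, and the last pair did not differ beyond their spread. At the low end stood MRPS17, MRPS28, MRPL38, MRPS24 and MRPL53, at 4.3, 2.5, 0.8, 0.5 and 0.0 CPM per kilobase. In uninfected cells the nuclear-labelled order began with MRPS15 (193.4 ± 5.7), MRPL37 (156.2 ± 7.1), MRPS34 (117.0 ± 6.6), MRPL16 (92.9 ± 1.3) and MRPL40 (80.8 ± 3.6). The order depends on the length used, since with all annotated exons as the length the first 5 in sgGal4 cells were MRPL37, MRPS34, MRPL15, MRPL45 and MRPS18B. MRPL53 passed the expression filter in no fit and MRPS24 in none of the guide-set fits and not in the nuclear-labelled transgene fits, so at most 77 members were tested in any comparison. For 34 members the annotation (GENCODE 29, on GRCh38) names at least 1 pseudogene. A further uncertainty is that 11 share over 10% of their exon length with another gene on the same strand, led by MRPL12 with 68.2%. STAR lists reads that map to several places or fall on more than 1 annotated gene as multiply mapped or ambiguous, and counts them for no gene. Counts of those members may therefore be too low. The low-end members MRPS17, MRPS28, MRPL38, MRPS24 and MRPL53 share 27.0%, 35.8%, 37.5%, 23.2% and 45.2% of their exon length in this way.

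The cytoplasmic-labelled order differed. In sgGal4 cells it began with MRPS25 (76.2 ± 4.2 CPM per kilobase), MRPL52 (71.9 ± 3.1), MRPS30 (66.0 ± 7.7), MRPS15 (56.3 ± 0.6) and MRPL37 (54.5 ± 3.9), around a median of 16.4. Uninfected cells began with MRPL52 (80.9 ± 0.5), MRPS15 (67.7 ± 1.8), MRPS25 (59.3 ± 2.4), MRPL20 (57.2 ± 4.3) and MRPS30 (52.7 ± 0.2), around a median of 15.1.

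Most members were higher in the nuclear-labelled than in the cytoplasmic-labelled fraction of control cells, relative to other RNAs of the same library. In sgGal4 cells 67 of 76 members tested were higher and 2 were lower (edgeR quasi-likelihood test, Benjamini-Hochberg adjusted p under 0.05, called from here on), where 65.0% of all genes were called and 29.7% were higher. In uninfected cells 69 of 77 were higher and 2 lower, where 72.5% of all genes were called and 31.8% were higher. The median log2 ratio of members was 1.62 in sgGal4 and 1.76 in uninfected cells, against -0.22 and -0.32 for all genes tested. Cytosolic ribosomal protein genes had medians of 2.55 and 2.97, and nuclear-encoded oxidative phosphorylation genes of 1.55 and 1.96. With scaling by library size alone the medians of all genes moved to -0.62 and -0.92, and those of members to 1.23 and 1.15, with 58 members higher and 3 lower in sgGal4 and 62 higher and 6 lower in uninfected cells.

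The 2 members that ran the other way were the same in both kinds of control cell. MRPS25, a small-subunit protein found only in mitochondria, had 336 and 363 CPM in the cytoplasmic-labelled and 111 and 117 CPM in the nuclear-labelled libraries of sgGal4 cells, so the fractions did not overlap. Its log2 ratio was -1.20 ± 0.15 (log2 fold change ± SE, adjusted p = 4.2e-09, edgeR) there and -0.93 ± 0.08 in uninfected cells. MRPL38, a large-subunit protein found only in mitochondria, had 16.2 and 14.2 CPM against 1.31 and 1.64, a log2 ratio of -3.00 ± 0.41 (adjusted p = 4.7e-08) and, in uninfected cells, of -2.55 ± 0.34. MRPL38 shares 37.5% of its exon length with another gene on its strand, and reads on the shared part may be counted for neither. Its ratio in sgGal4 cells rests on 14 and 6 raw counts in the nuclear-labelled libraries. At the other end, in sgGal4 cells, stood MRPL54 (2.92 ± 0.25), MRPL51 (2.57 ± 0.20), MRPL34 (2.50 ± 0.20), MRPL12 (2.45 ± 0.28) and MRPL10 (2.43 ± 0.17). In uninfected cells MRPL51 (3.16 ± 0.15), MRPS12 (2.83 ± 0.16), MRPL54 (2.79 ± 0.20), MRPL10 (2.77 ± 0.13) and MRPL16 (2.58 ± 0.12) led. MRPL10 and MRPL12 form the stalk of the large subunit that recruits translation factors.

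**Figure D1:**
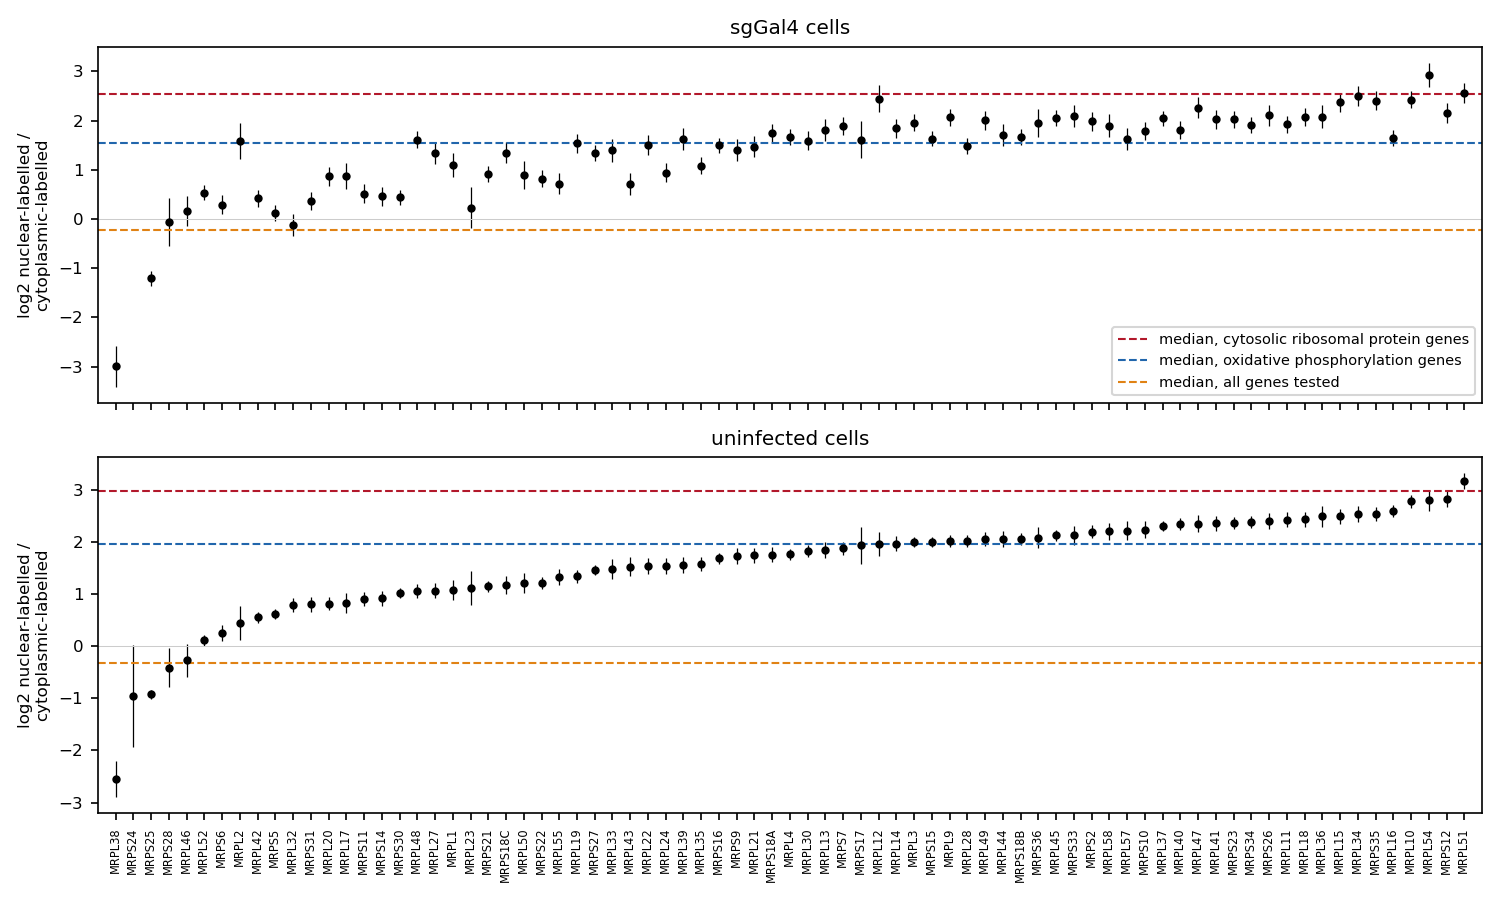
Log2 of the level in nuclear-labelled divided by that in cytoplasmic-labelled libraries for each member tested, ordered by size, in sgGal4 and in uninfected cells, with standard errors, and horizontal lines at the medians of cytosolic ribosomal protein, oxidative phosphorylation and all genes. All but a few members lie above 0, and MRPL38 and MRPS25 lie lowest, at -3.00 and -1.20 in sgGal4 cells.

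Knockdown of DDX3 with sgDDX3 lowered the levels of many members in the nuclear-labelled libraries and raised none. Of 76 members tested 33 fell and 0 rose, where 31.3% of all genes were called, 14.9% as lower and 16.4% as higher. A log2 change below 0 was fitted for 67 of the 76. The median log2 change of members was -0.33, against 0.01 for all genes tested, and it was -0.33 too under scaling by library size alone. Since whole populations of cells were sequenced and CPM are relative, fewer cells with a given RNA and less of that RNA per cell cannot be told apart, here and below.

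MRPS18B, a small-subunit protein and 1 of 3 paralogs of the same bacterial protein, was among the members with the largest fall. It had 116 and 126 CPM with sgGal4 and 68.8 and 69.2 CPM with sgDDX3 in the nuclear-labelled libraries, so the groups were well apart (-0.80 ± 0.10, adjusted p = 3.3e-07, edgeR). In the cytoplasmic-labelled libraries it had 50.6 and 50.1 CPM against 25.6 and 30.6, and was the one member called there (-0.84 ± 0.20, adjusted p = 0.041). MRPS18A, its paralog in the large subunit, had 59.6 and 54.0 CPM against 32.8 and 38.2 in the nuclear-labelled libraries (-0.68 ± 0.13, adjusted p = 0.00014). MRPS18C, the other small-subunit paralog, which takes the place of the bacterial protein, fell too, from 29.1 and 39.3 CPM to 22.5 and 23.1 (-0.54 ± 0.15, adjusted p = 0.0076). The sgGal4 libraries of MRPS18C were far apart, but both stood above both sgDDX3 libraries. All 3 paralogs have named pseudogenes.

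Large-subunit members fell as well. MRPL58, a peptidyl-tRNA hydrolase built into the large subunit that frees stalled ribosomes, had 43.0 and 44.2 CPM with sgGal4 and 23.1 and 24.1 with sgDDX3 (-0.88 ± 0.14, adjusted p = 8.9e-06, edgeR). MRPL47, the counterpart of a bacterial protein at the polypeptide exit, had 40.4 and 51.6 CPM against 27.0 and 24.9 (-0.80 ± 0.15, adjusted p = 9.9e-05). MRPL39, found only in mitochondria, changed by -0.75 ± 0.16 (adjusted p = 0.00057). MRPL45, which lies beside the exit tunnel and faces the inner membrane, had 115 and 120.3 CPM against 89.1 and 87.6 (-0.41 ± 0.10, adjusted p = 0.0017). MRPL58, MRPL47 and MRPL45 did not overlap between the groups.

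The fall was spread over both subunits. It was called for 13 of 30 large-subunit members with a bacterial counterpart (median -0.33), 9 of 20 large-subunit members found only in mitochondria (median -0.30), 5 of 15 small-subunit members with a bacterial counterpart (median -0.19) and 6 of 10 small-subunit members found only in mitochondria (median -0.40). Of the 5 further mitochondrial ribosomal proteins without an MRP symbol, PTCD3 (-0.51), GADD45GIP1 (-0.35) and DAP3 (-0.29) were called lower. Cytosolic ribosomal protein genes did not move the same way, with 24 of 82 called higher, 3 lower and a median of 0.07. Of nuclear-encoded oxidative phosphorylation genes 1 was higher and 20 of 79 were lower, with a median of -0.16. Of 26 ribosome assembly factors 5 were called, all of them lower (19.2%, near the 14.9% of all genes that were lower), with the largest changes in GTPBP10 (-0.68), a GTPase of large-subunit assembly, RPUSD4 (-0.60), a pseudouridine synthase, and DDX28 (-0.42), a DEAD-box helicase.

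The count of called members depended on single libraries. Leaving out any 1 of the 4 libraries of the comparison left 15 to 23 called, 15 without sgDDX3 replicate 2 and 19 without sgGal4 replicate 2, and 10 of the 33 were called in every such fit, MRPS18B, MRPL45 and MRPL58 among them. In the cytoplasmic-labelled libraries, where the spread was larger, 1 of 76 members was called, as lower, where 2.77% of all genes were called, 1.68% as lower and 1.08% as higher. There 11 had an unadjusted p under 0.05, 61 of 76 were fitted below 0 and the median was -0.24. That single call was lost without any 1 of its 4 libraries.

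**Figure D2:**
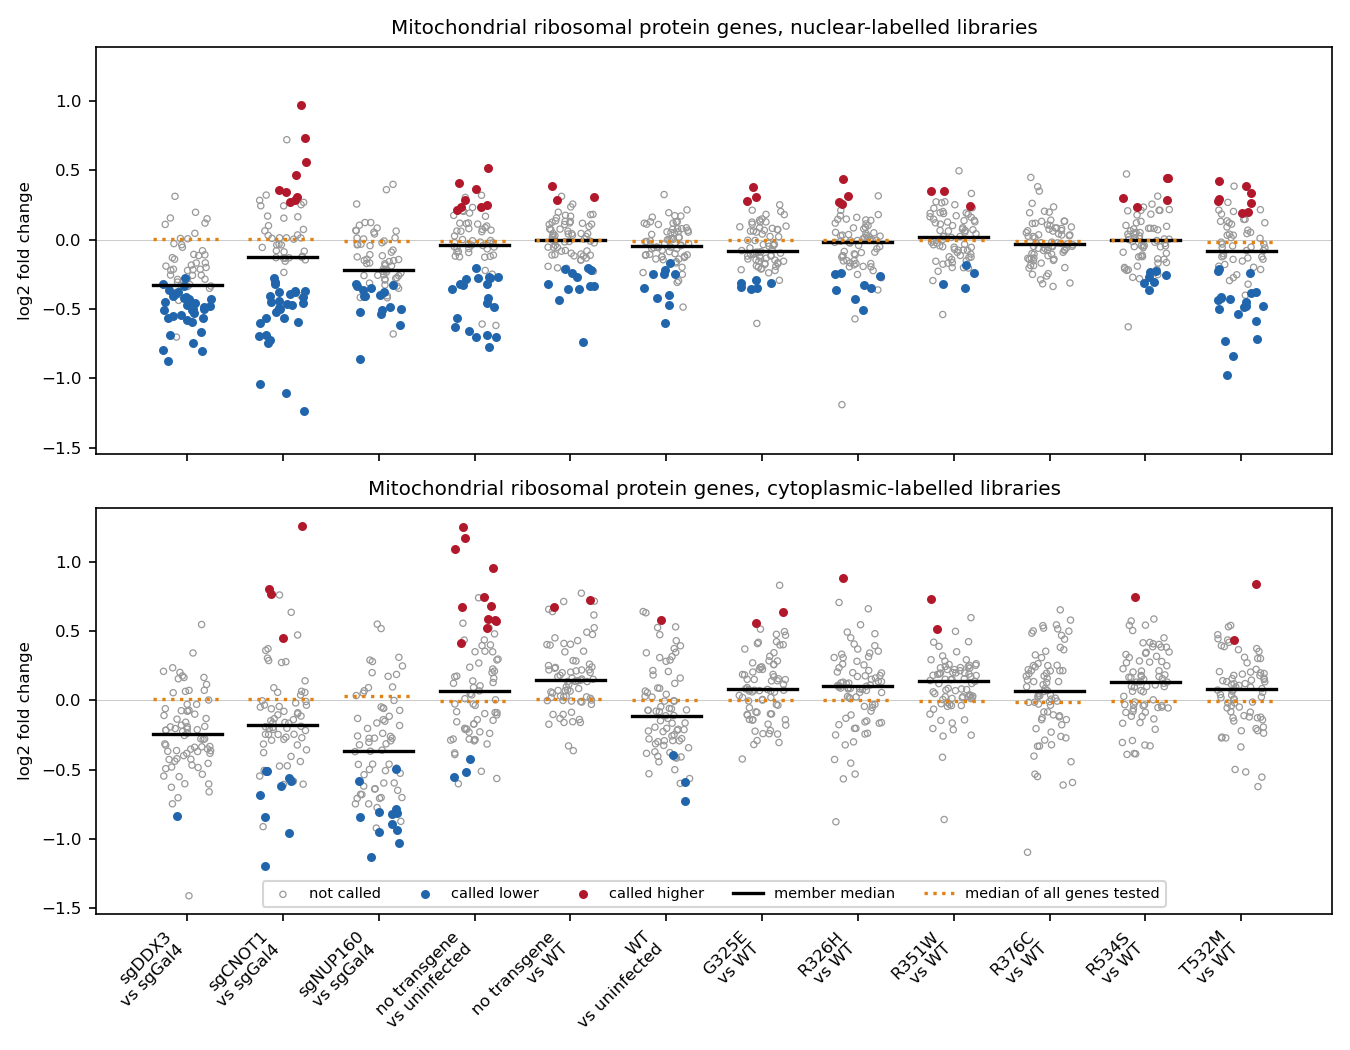
Log2 fold change of every tested member in each comparison of a genotype with its control, for the cytoplasmic-labelled and the nuclear-labelled libraries, with called members filled (blue lower, red higher), a black line at the member median and a dotted line at the median of all genes tested. In the nuclear-labelled libraries the sgDDX3 column has 33 blue points, no red ones and a median of -0.33.

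The transgene set holds a second DDX3 knockdown with its own control, the cells without transgene against uninfected cells, in which DDX3X kept more of its level. The direction was mixed there. Of 76 members tested in nuclear-labelled libraries 20 fell and 8 rose, where 39.0% of all genes were called, 19.3% as lower and 19.7% as higher, and the member median was -0.04. With scaling by library size alone 15 fell and 16 rose, and the median of all genes went from -0.01 to 0.09. MRPS18B had 120.4 and 116 CPM in uninfected cells and 76.1 and 70.3 without transgene (-0.69 ± 0.08, adjusted p = 1.4e-11, edgeR). MRPS18A had 64.5 and 62.1 CPM against 35.8 and 42.3 (-0.70 ± 0.11, adjusted p = 2.6e-07). For both genes each library without transgene stood below each uninfected one. MRPS18C had 27.5 and 29.7 CPM against 30.9 and 31.3 and was not called.

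The largest fall in this comparison was that of MRPL10, the base of the large-subunit stalk, with 111 and 113 CPM in uninfected cells and 64.4 and 66.2 without transgene (-0.77 ± 0.08, adjusted p = 1.4e-12, edgeR). With sgDDX3 in the guide set MRPL10 was not called, at 103 and 107 CPM against 115 and 127. MRPS33, found only in mitochondria, fell by 0.70 ± 0.12 on the log2 scale. MRPL58 had 54.0 and 42.4 CPM against 29.4 and 31.9 (-0.66 ± 0.11, adjusted p = 2e-06), without overlap although the uninfected libraries lay far apart. MRPL45 had 114 and 118 CPM against 79.1 and 77.6 (-0.57 ± 0.08, adjusted p = 3.3e-09). Of the 10 small-subunit members found only in mitochondria 7 fell and 1 rose, with a median of -0.30. Of all 76 members 20 fell and 8 rose. The other groups of members are not listed for this comparison, and a difference between groups was not tested.

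The members that rose encode other proteins. MRPS12, a protein of the decoding centre that bears on the accuracy of translation, had 45.1 and 47.9 CPM in uninfected cells and 64.3 and 68.7 without transgene (0.51 ± 0.09, adjusted p = 3.4e-06, edgeR). MRPL34, a large-subunit protein with a bacterial counterpart, had 49.1 and 50.0 CPM against 61.8 and 66.1 (0.37 ± 0.09, adjusted p = 0.00052). Both were clear of the uninfected range, and in the guide set neither was called with sgDDX3 (MRPS12 0.01 ± 0.13, MRPL34 0.11 ± 0.13). MRPS6 (0.41 ± 0.12), MRPL41 (0.29 ± 0.09) and MRPS7 (0.25 ± 0.08) also rose. Cytosolic ribosomal protein genes were mostly lower here, 60 of 82 with 3 higher and a median of -0.24. Leaving out 1 library gave 20 to 24 called members, 19 to 23 of them among the 28, and 17 were called in every such fit.

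In the cytoplasmic-labelled libraries of the same comparison 12 of 77 members rose and 3 fell, where 25.8% of all genes were called, 14.0% as higher and 11.8% as lower, and the member median was 0.07. MRPL12, a stalk protein that is also known to bind the mitochondrial RNA polymerase, had 4.61 and 6.06 CPM in uninfected cells and 12 and 12.1 without transgene (1.17 ± 0.27, adjusted p = 0.0014, edgeR). MRPS12 had 8.37 and 9.83 CPM against 17.4 and 21.5 (1.09 ± 0.23, adjusted p = 0.00041). The groups stood apart for both genes, though at low levels. MRPS17 (1.25 ± 0.45), MRPS26 (0.96 ± 0.21) and MRPL28 (0.75 ± 0.16) rose, and MRPL42 (-0.55 ± 0.13), MRPS18B (-0.52 ± 0.17) and MRPL52 (-0.42 ± 0.12) fell. Scaling by library size alone gave 7 higher and 6 lower, with the median of all genes at -0.10. Without 1 library the count ran from 8 (without either uninfected library) to 26 (without no transgene replicate 1), and 9 were called without no transgene replicate 2.

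The 2 DDX3 knockdowns share no library, so their calls can be laid side by side. In the nuclear-labelled libraries 15 members fell in both, which is 45.5% of the 33 lower with sgDDX3 and 75% of the 20 lower without transgene. For all genes tested in both sets, 977 were lower in both, 46.3% and 34.8% of those lower in either. The 15 are MRPL30, MRPL37, MRPL40, MRPL45, MRPL54 and MRPL58 of the MRPL genes, the large-subunit MRPS18A, and MRPS2, MRPS9, MRPS18B, MRPS22, MRPS23, MRPS27, MRPS31 and MRPS35. Of the 33, MRPL35 and MRPS7 rose without transgene, 6.06% against 10.5% for all genes. In the cytoplasmic-labelled libraries MRPS18B fell in both knockdowns, being the 1 member lower with sgDDX3 and 1 of the 3 lower without transgene.

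**Figure D3:**
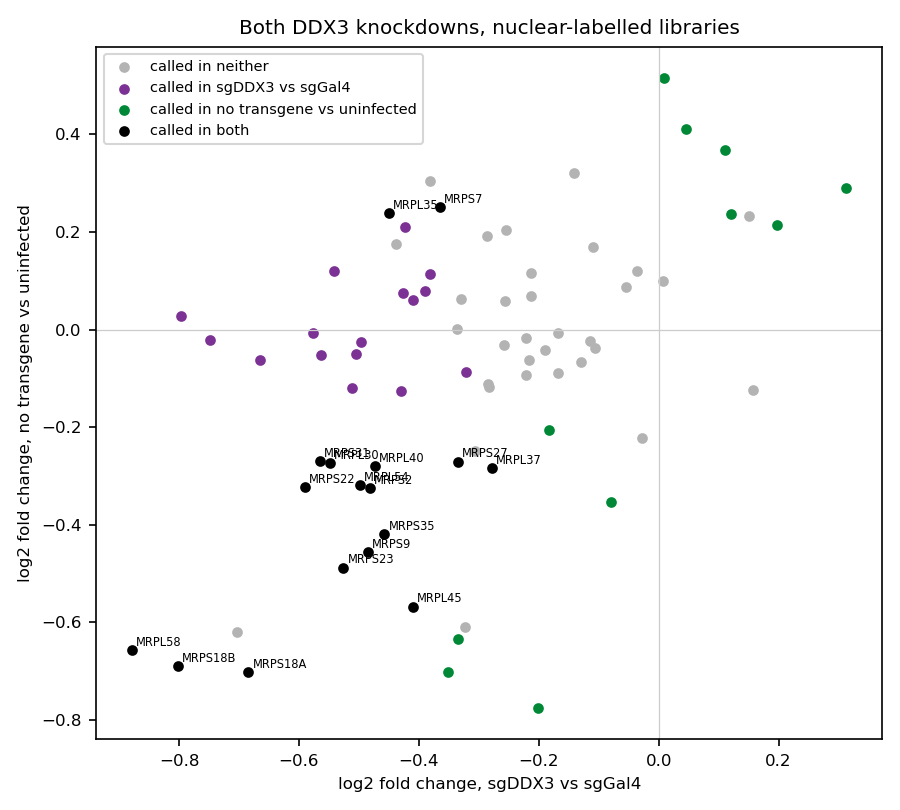
Log2 fold change of each member in nuclear-labelled libraries with sgDDX3 against sgGal4 (x axis) and without transgene against uninfected cells (y axis), with colour showing in which comparison it was called. The 15 members lower in both are named and lie in the lower left of the plot, while MRPL35 and MRPS7 are the 2 called in opposite directions.

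The promoters of 4 of these 15 members are shown, those of MRPS18B, MRPS18A, MRPL58 and MRPL45, which were among the largest falls or the most often called. Each line gives the 100 bases before the transcription start listed by RefSeq on GRCh38.p14, read 5′ to 3′ on the gene's strand. For MRPS18B and MRPL45 all 100 bases lie inside the gene as GENCODE 29 draws it, whose starts are further upstream, while those of MRPS18A and MRPL58 lie outside it. In the order named above, the stretches lie at chr6:30617740-30617839 (plus strand), chr6:43687792-43687891 (minus strand), chr17:75012570-75012669 (plus strand) and chr17:38297068-38297167 (plus strand). Capitals mark matches on either strand to the core motif of NRF1 (GCATGCG), of the ETS factor GABPA (CCGGAAG), of YY1 (ATGGCGG), to the GC box (GGGCGG) or to the CCAAT box (CCAAT). NRF1, GABPA and YY1 are transcription factors known to act on nuclear genes for mitochondrial proteins.
MRPS18B: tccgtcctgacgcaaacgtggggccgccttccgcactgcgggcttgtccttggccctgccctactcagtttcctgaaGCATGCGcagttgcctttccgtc
MRPS18A: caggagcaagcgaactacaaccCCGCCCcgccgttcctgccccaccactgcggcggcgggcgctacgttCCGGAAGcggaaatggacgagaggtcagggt
MRPL58: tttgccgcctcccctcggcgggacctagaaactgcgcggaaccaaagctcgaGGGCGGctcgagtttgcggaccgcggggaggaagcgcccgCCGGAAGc
MRPL45: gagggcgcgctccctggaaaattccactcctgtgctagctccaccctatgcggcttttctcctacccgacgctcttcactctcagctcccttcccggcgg

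In these stretches MRPS18B has 1 NRF1 core, MRPS18A and MRPL58 each have 1 GABPA core and 1 GC box (on the minus strand in MRPS18A), and MRPL45 has none of the letters searched. RefSeq promoters of 300 bases, 250 before and 50 after the first start listed, were matched for 69 of the 78 members. The GABPA core was in 42.0% of them, against 14.4% of the promoters of all 15306 protein-coding genes matched. The YY1 core was in 34.8% against 7.76%, and the NRF1 core in 10.1% against 5.14%. The GC box was in 60.9% against 59.3%, and the CCAAT box in 29% against 36.6%. Within the members, 30 of those lower with sgDDX3 in nuclear-labelled libraries and 37 of the others tested had a promoter. The GABPA core was in 46.7% and 37.8%, the YY1 core in 43.3% and 27.0% and the GC box in 46.7% and 70.3% of these, given as a description of letters and not of binding. The NRF1 core was in 10% and 10.8% and the CCAAT box in 26.7% and 32.4%. Split by the falls without transgene against uninfected cells instead, the GABPA core was in 57.9% and 35.4%, the YY1 core in 31.6% and 35.4% and the GC box in 63.2% and 58.3%. Split by the falls with T532M against WT, these were 50% and 38.8%, 33.3% and 34.7%, and 50% and 63.3%. The NRF1 core was in 5.26% and 12.5% in the first and 5.56% and 12.2% in the second of these splits, and the CCAAT box in 31.6% and 29.2% and in 22.2% and 32.7%. Among the members that fell, the GABPA share was thus higher in each of the 3 splits, which share members. The NRF1 shares were lower in each of the 3 splits, by little in the first, and rest on few genes. They were 3 of 30 against 4 of 37, 1 of 19 against 6 of 48 and 1 of 18 against 6 of 49. The YY1, GC box and CCAAT box shares differed in direction between splits. Differences in these shares were not tested.

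With the WT transgene some of these members stood between the cells without transgene and the uninfected cells. DDX3X itself had 370 and 361 CPM with WT in nuclear-labelled libraries, above the 284 and 298 of uninfected cells. Against WT, the nuclear-labelled libraries without transgene had 12 of 76 members lower and 3 higher, where 18.0% of all genes were called and 8.73% were lower, with a member median of -0.004. MRPS18B had 107 and 92.2 CPM with WT, above the 76.1 and 70.3 without transgene (-0.44 ± 0.08, adjusted p = 1.4e-05, edgeR) and below both uninfected libraries (WT against uninfected -0.25 ± 0.07, adjusted p = 0.0095). MRPL45 had 97.6 and 98.3 CPM with WT, also between the other groups (-0.32 ± 0.08 and -0.25 ± 0.07 in the same order). MRPL10 had 80.3 and 86.5 CPM (-0.36 ± 0.08 and -0.42 ± 0.08). MRPL58 with WT had 32.8 and 30.9 CPM, close to the cells without transgene, and differed from uninfected cells (-0.60 ± 0.11) while the comparison without transgene against WT was not called.

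MRPL23, at the polypeptide exit and counted at under 9 CPM, had the largest fall without transgene against WT (-0.74 ± 0.25), followed by MRPS18B, MRPL10, MRPS18A (-0.36 ± 0.11) and MRPL24 (-0.34 ± 0.12). MRPS12 (0.38 ± 0.09), MRPL34 (0.31 ± 0.09) and MRPL41 (0.29 ± 0.09) rose. MRPS12 had 46.9 and 54.5 CPM and MRPL34 49.5 and 53.3 CPM with WT, and neither was called between WT and uninfected cells. In that comparison 10 of 76 members were lower and 0 higher in the nuclear-labelled libraries, where 21.2% of all genes were called. They were MRPL58, MRPS33 (-0.47 ± 0.12), MRPL10, MRPS2 (-0.40 ± 0.08), MRPS18A (-0.35 ± 0.10), MRPS18B, MRPL45, MRPS23 (-0.25), MRPS35 (-0.22) and MRPL37 (-0.17). With scaling by library size alone the split turned to 4 lower and 12 higher, as the median of all genes moved from -0.01 to 0.14. In the cytoplasmic-labelled libraries, where calls numbered 0 to 4 in the first and 1 in the second comparison without any 1 library, MRPS26 (0.68 ± 0.21) and MRPS35 (0.72 ± 0.22) rose without transgene against WT, where 8.40% of all genes were called. WT against uninfected cells had MRPL42 (-0.72 ± 0.13), MRPS18B (-0.59 ± 0.17) and MRPL52 (-0.39 ± 0.12) lower and MRPL55 (0.58 ± 0.19) higher there, where 8.27% were called, 3.73% as lower and 4.54% as higher. Without 1 library, 6 to 8 members in the first and 6 to 7 in the second nuclear-labelled comparison were called, and 3 of the 15 and 3 of the 10 were called in every such fit. The counts were lower by more than 1.5 times for each library left out in the first comparison and for each but WT replicate 2 in the second.

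**Figure D4:**
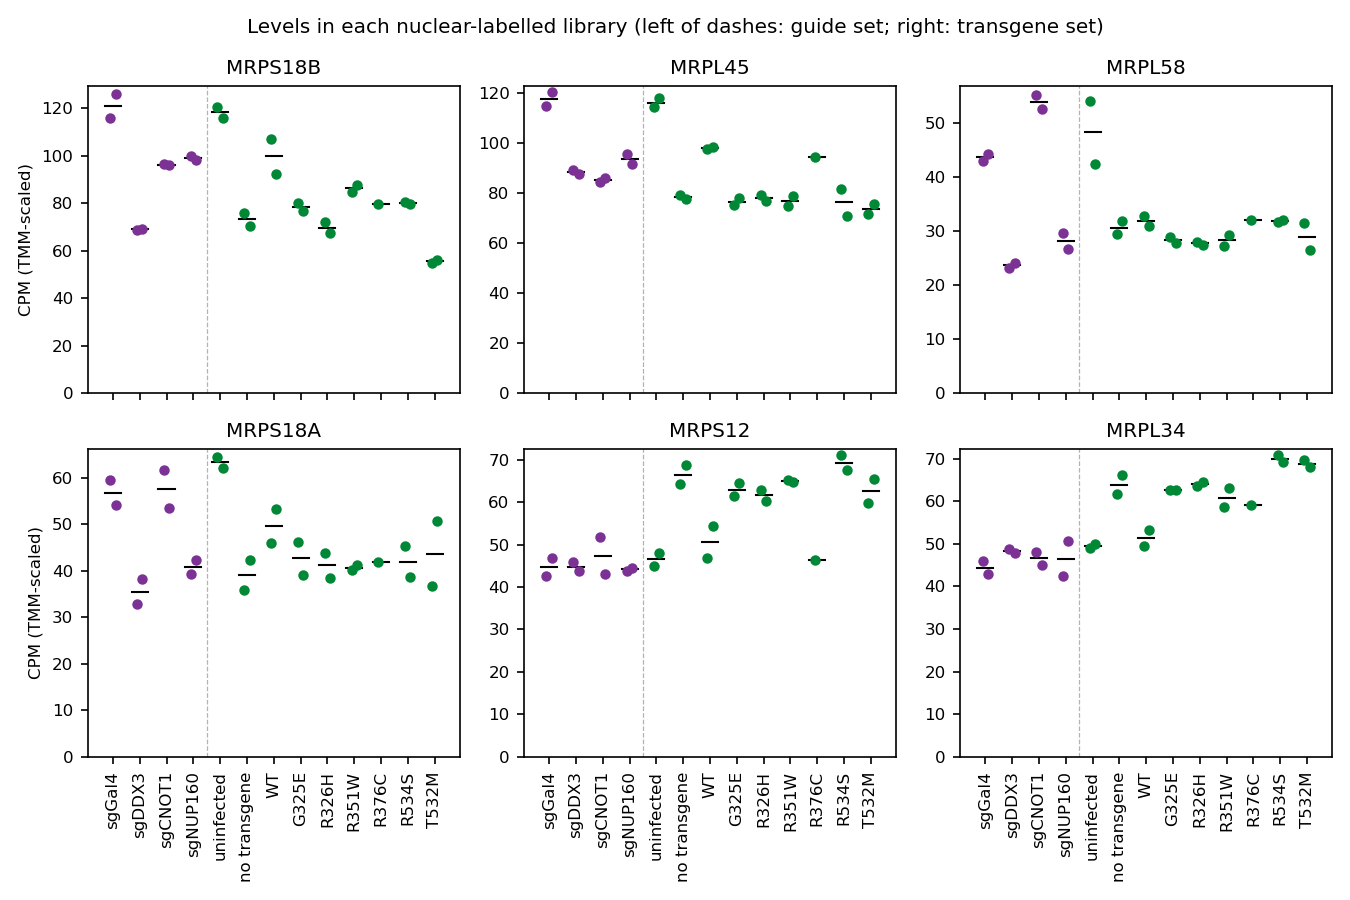
Level of MRPS18B, MRPL45, MRPL58, MRPS18A, MRPS12 and MRPL34 in each nuclear-labelled library, in TMM-scaled CPM, with points for libraries and black lines for group means. MRPS18B is lowest in T532M (55.0 and 56.0 CPM), and MRPS12 and MRPL34 are above WT in every mutant group with 2 libraries.

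The DDX3 mutants were each compared with WT in the same knockdown background. DDX3X itself differed between these groups. In nuclear-labelled libraries it had 370 and 361 CPM in WT, 550 and 554 in G325E and 456 and 449 in R326H. It had 300 and 290 CPM in R351W, 500 in R376C, 367 and 384 in R534S and 432 and 424 in T532M. The part of the DDX3X level in the changes below was not tested. T532M had the most calls in the nuclear-labelled libraries, of members as of all genes. Its nuclear-labelled libraries were also the shallowest of those of the mutants with 2 libraries, at 7521934 and 5124462 gene counts, with 60.7% and 73.2% of reads not assigned to a gene, where those of WT had 50.3% and 42.2%. The part of this in the result was not tested. In the nuclear-labelled libraries 20 of 76 members were lower and 8 higher with T532M, where 35.1% of all genes were called, 17.7% as lower and 17.5% as higher. The member median was -0.08. MRPS18B had 55.0 and 56.0 CPM with T532M against 107 and 92.2 with WT (-0.84 ± 0.09, adjusted p = 3.7e-13, edgeR), lower than in any other group of the set. MRPL23 (-0.98 ± 0.28) and MRPS17 (-0.73 ± 0.27), both at low counts, MRPS31, found only in mitochondria (-0.72 ± 0.12), and MRPS9, which has a bacterial counterpart (-0.59 ± 0.11), were the other large falls. MRPS31 had 24.5 and 24.2 CPM against 37.7 and 41.9 with WT, with no overlap. Of the 10 small-subunit members found only in mitochondria 6 fell and 1 rose, with a median of -0.37. The other groups of members are not listed for T532M, and a difference between groups was not tested. MRPL34 (0.42 ± 0.09), MRPL36 (0.38 ± 0.12), MRPL50 (0.34 ± 0.14), MRPS12 (0.29 ± 0.09) and MRPL4 (0.28 ± 0.07) rose the most. With scaling by library size alone 30 were lower and 1 higher, as the median of all genes went from -0.02 to -0.13. Without 1 library 20 to 28 members were called, and 13 of the 28 in every such fit.

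The other mutants with 2 libraries moved fewer members, and a smaller share of all genes too. In nuclear-labelled libraries G325E had 3 higher and 6 lower of 76 (17.3% of all genes called, 8.62% higher and 8.65% lower). R326H had 4 and 8 (17.7%, 9.03% and 8.65%), R351W 3 and 4 (15.0%, 7.51% and 7.52%) and R534S 5 and 7 (20.4%, 10.2% and 10.2%). By library size alone R351W had 1 and 6 and R534S 4 and 11. MRPL45 was called lower in each of these and in T532M, with 75.4 and 77.9 CPM in G325E, 79.2 and 76.7 in R326H, 75 and 78.7 in R351W, 81.8 and 71.0 in R534S and 71.8 and 75.7 in T532M, against 97.6 and 98.3 in WT. Its log2 changes lay between -0.41 and -0.33, each with an SE of 0.08, and no mutant library reached a WT library. MRPS18B was lower in G325E (-0.34 ± 0.08), R326H (-0.51 ± 0.08) and R534S (-0.31 ± 0.08), and in R351W it was not called (-0.20 ± 0.08, adjusted p = 0.062). All these comparisons share the WT libraries, so they are not independent of each other. Without 1 library the calls numbered 5 to 8 in G325E (5 without G325E replicate 2 or WT replicate 1), 7 to 8 in R326H, 2 to 4 in R351W and 7 to 8 in R534S, in R351W fewer by more than 1.5 times for each library, and in the other 2 for each but WT replicate 1 in R326H and R534S replicate 2 in R534S.

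MRPS12 and MRPL34 were the members called higher in each of these 5 mutants. MRPS12 had 61.5 and 64.5 CPM in G325E, 62.9 and 60.3 in R326H, 65.2 and 64.9 in R351W, 71.1 and 67.6 in R534S and 59.8 and 65.5 in T532M, against 46.9 and 54.5 in WT, with log2 changes from 0.28 to 0.44. MRPL34 had 62.7 and 62.6, 63.5 and 64.5, 58.7 and 63.0, 70.8 and 69.2, and 69.7 and 68.1 CPM in the same order, against 49.5 and 53.3, with changes from 0.24 to 0.44. All 10 mutant libraries were above both WT libraries for both genes. MRPL10 was lower in G325E (-0.35), R326H (-0.35), R351W (-0.32) and R534S (-0.23). G325E further had MRPL30 (-0.31), MRPS9 (-0.31) and MRPS27 (-0.29) lower and MRPS6 (0.38) higher. R326H had MRPS9 (-0.43) and MRPL54 (-0.36) lower and MRPS6 (0.44) and MRPL41 (0.26) higher, R351W had MRPS21 (-0.24) and MRPL37 (-0.18) lower and MRPL50 (0.35) higher, and R534S had MRPS27 (-0.30), MRPL47 (-0.27) and MRPL42 (-0.25) lower and MRPL41 (0.30), MRPS11 (0.29) and MRPL4 (0.24) higher.

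R376C had 1 library of each fraction and no member was called with edgeR or DESeq2, where 2.75% of all genes were called in the nuclear-labelled and 0.827% in the cytoplasmic-labelled comparison, and 8 and 5 members had an unadjusted p under 0.05. Its single nuclear-labelled library had 79.7 CPM of MRPS18B, below WT, 94.6 CPM of MRPL45, 46.5 of MRPS12 and 59.1 of MRPL34. MRPL45 and MRPS12 were thus near WT, with log2 changes of -0.05 ± 0.10 and -0.13 ± 0.12, and their spread rests on the other groups.

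A joint test for differences among the 6 mutants called 21 of 76 members in the nuclear-labelled libraries, where 26.5% of all genes were called. MRPS18B led it (span of 0.64 between the highest and lowest log2 change, adjusted p = 2.4e-07, edgeR F test), then MRPL19, the counterpart of a bacterial protein at the subunit interface (0.67, adjusted p = 1.3e-06). MRPL19 had 44.1 and 44.1 CPM in T532M and 49.9 to 70.6 CPM in the other mutants, so T532M stood below them all. MRPL42 (0.45), MRPS35 (0.55) and MRPL4 (0.31) followed. In the cytoplasmic-labelled libraries the joint test called 0 members with edgeR and 0 with DESeq2, where 4.85% of all genes were called and 8 members had an unadjusted p under 0.05. There, MRPS11 and MRPL21 were higher than in WT with G325E (0.56 ± 0.16 and 0.64 ± 0.17, 6.15% of all genes called, 2.21% as higher), MRPL12 with R326H (0.88 ± 0.26, 5.23%, 1.91% higher and 3.32% lower), MRPS11 and MRPL34 with R351W (0.52 ± 0.15 and 0.73 ± 0.22, 5.65%, 2.20% higher and 3.46% lower), MRPL21 with R534S (0.75 ± 0.17, 7.39%, 3.11% higher) and MRPL28 and MRPL21 with T532M (0.44 ± 0.15 and 0.84 ± 0.17, 14.7%, 6.83% higher and 7.88% lower). Without any 1 library these counts ran from 0 to 2, and 1 of the 8 calls, in T532M, was made in every such fit. With the second R376C nuclear-labelled library put back, no member was called with edgeR in any nuclear-labelled comparison of the transgene set.

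**Figure D5:**
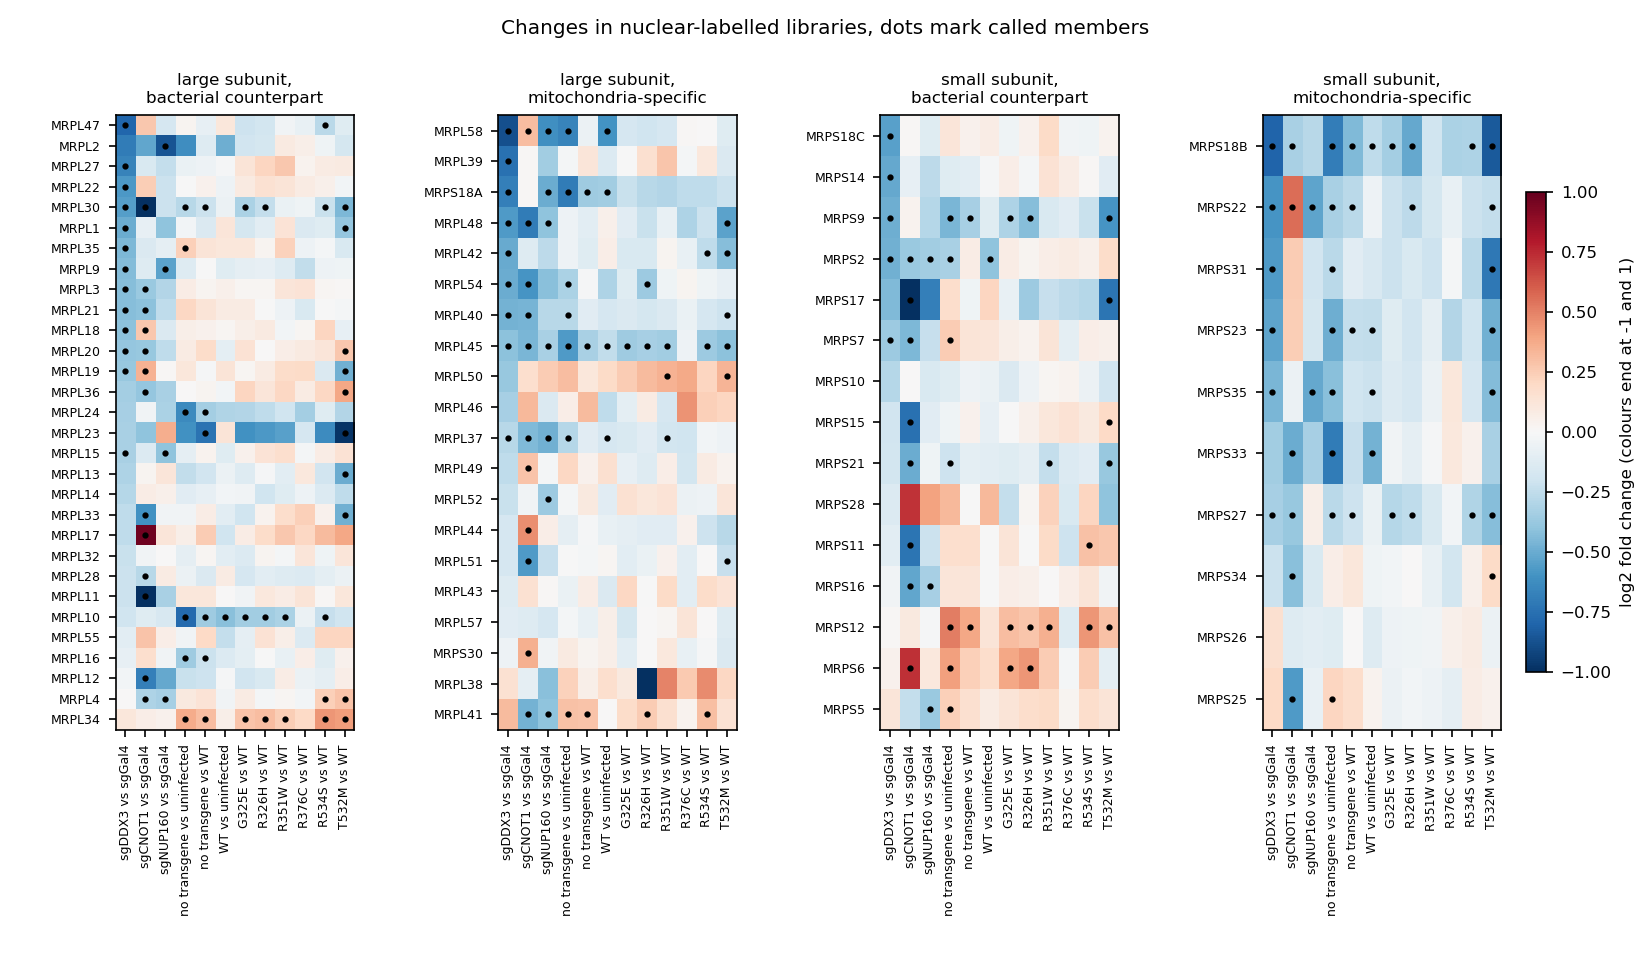
Log2 fold change of each tested member except MRPS36, which is in none of the groups, in each comparison of nuclear-labelled libraries. Rows are members, grouped by subunit and by whether a bacterial counterpart exists, columns are comparisons, and dots mark called members. The sgCNOT1 column has the deepest colours of both signs, from -1.23 for MRPS17 to 0.97 for MRPL17, and the MRPS18B and MRPL45 rows are below 0 across the columns.

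Knockdown of CNOT1 changed members in both directions. In the nuclear-labelled libraries 29 of 76 fell and 9 rose, where 49.6% of all genes were called, 23.1% as lower, and the member median was -0.13. MRPL11, at the base of the stalk, had 71.8 and 77.2 CPM with sgGal4 and 34.3 and 34.7 with sgCNOT1 (-1.10 ± 0.12, adjusted p = 4.8e-09, edgeR). MRPL30, with a bacterial counterpart, had 86.6 and 78.6 CPM against 35.0 and 46.7 (-1.04 ± 0.13, adjusted p = 7.8e-08). Both were far below every sgGal4 library. MRPS17 (-1.23 ± 0.29, at under 10 CPM), MRPS15 (-0.74 ± 0.10) and MRPS11 (-0.73 ± 0.16) were the other large falls, and MRPL12 fell from 21.2 and 17.7 CPM to 13.3 and 11.2 (-0.68 ± 0.18). MRPS17, MRPL12 and MRPL30 share 27.0%, 68.2% and 32.6% of their exon length with another gene.

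Among the members that rose with sgCNOT1, MRPL17, with a bacterial counterpart, went from 14.4 and 14.7 CPM to 28.9 and 27.9 (0.97 ± 0.18, adjusted p = 4.6e-05, edgeR). MRPS22, found only in mitochondria, had 60.8 and 58.4 CPM with sgGal4, 77.9 and 99.3 with sgCNOT1 (0.56 ± 0.13), 44.3 and 35.5 with sgDDX3 and 42.0 and 41.0 with sgNUP160 (-0.52 ± 0.13). It was thus above the control in one knockdown and below it in the others. MRPS6 (0.73 ± 0.14), MRPL44, related to ribonuclease III (0.47 ± 0.13), and MRPS30 (0.36 ± 0.10) also rose. MRPL58, which fell with sgDDX3 and sgNUP160, had 55.2 and 52.6 CPM with sgCNOT1, above sgGal4 (0.31 ± 0.13, adjusted p = 0.041). Cytosolic ribosomal protein genes were lower almost throughout, 78 of 82 with a median of -0.73, as were 52 of 79 oxidative phosphorylation genes with a median of -0.53. Without 1 library 26 to 42 members were called, and 24 of the 38 in every such fit.

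Of 76 members in cytoplasmic-labelled libraries 9 fell and 4 rose with sgCNOT1, where 22.0% of all genes were called, 9.01% as lower and 13.0% as higher, and the median was -0.17. MRPL30 (43.9 and 29 against 16.7 and 15.1 CPM, -1.20 ± 0.25) and MRPL11 (23.4 and 28.8 against 14.0 and 12.7 CPM, -0.96 ± 0.23) fell here too. MRPL3 (-0.84 ± 0.22), MRPL35 (-0.68 ± 0.22) and MRPL45 (-0.62 ± 0.20) came next. MRPL46 (1.26 ± 0.28), MRPL41 (0.81 ± 0.22), MRPS6 (0.77 ± 0.19) and MRPL52 (0.45 ± 0.15) rose. The count was 1 without sgGal4 replicate 1, 4 without sgGal4 replicate 2 and 26 without sgCNOT1 replicate 1.

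Knockdown of NUP160 lowered members and raised none. Of 76 members in nuclear-labelled libraries 16 fell, where 15.9% of all genes were called, 8.54% as lower and 7.36% as higher, with a member median of -0.22. MRPL58 had 29.6 and 26.7 CPM against 43.0 and 44.2 with sgGal4 (-0.61 ± 0.13, adjusted p = 0.0016, edgeR), with no overlap. MRPL2 (-0.86 ± 0.29, at under 9 CPM), MRPL9 (-0.54 ± 0.11), MRPS22 and MRPS35 (-0.51 ± 0.11) were the other large falls. Of the large-subunit members found only in mitochondria 7 of 20 fell, beside the 16 of all 76 members. The other groups are not listed for sgNUP160, and a difference between groups was not tested. Cytosolic ribosomal protein genes had 20 higher, 1 lower and a median of 0.12. Without 1 library the count fell to between 3 and 6, with sgGal4 replicate 1 giving 3, and 3 of the 16 were called in every such fit.

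The cytoplasmic-labelled libraries of sgNUP160 cells had 12 of 76 members lower and 0 higher, where 15.2% of all genes were called and 8.13% were lower. These were the shallowest libraries used, at 3107189 and 2354961 gene counts. Reads outside genes made up 66.4% and 69.2% of their uniquely mapped reads, against 51.9% and 55.4% with sgGal4. The part of this in the result was not tested. The member median was -0.37, and it was -0.19 by library size alone, where that of all genes was 0.21 and 3 members were called. MRPL40, found only in mitochondria, had 45.5 and 35.7 CPM with sgGal4 and 15.2 and 22.3 with sgNUP160 (-1.13 ± 0.26, adjusted p = 0.011, edgeR). MRPS35 (-1.03 ± 0.30), MRPL32, which a membrane protease matures in yeast and mouse (-0.95 ± 0.31), MRPS2 (-0.93 ± 0.28) and MRPL11 (-0.89 ± 0.25) also fell, as did MRPS18B (50.6 and 50.1 against 31.1 and 25.8 CPM, -0.82 ± 0.21). Leaving out any 1 library left 0 or 1 called.

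The 3 knockdowns share the sgGal4 libraries, and a joint test asked whether their changes differed. It called 46 of 76 members in the nuclear-labelled and 9 in the cytoplasmic-labelled libraries, where 67.7% and 25.2% of all genes were called. MRPS22 (span of 1.15 in log2 change, adjusted p = 1.2e-09, edgeR F test), MRPL58 (1.19), MRPL11 (0.89), MRPL47 (1.07) and MRPL17 (1.23) led in the nuclear-labelled libraries. MRPL52, MRPL41, MRPL18, MRPS25, MRPL55, MRPL46, MRPS6, MRPL9 and MRPS22 were the 9 called in the cytoplasmic-labelled ones. The last count ran from 4 (without sgNUP160 replicate 2) to 28 (without sgCNOT1 replicate 2), with 20 without sgCNOT1 replicate 1 and 5 without each of the other 3 libraries.

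Over all 24 comparisons of a genotype with its control in 1 fraction, which share controls, MRPL45 and MRPS18B were each called 13 times, always lower. MRPL30 and MRPS27, a small-subunit protein of the pentatricopeptide repeat family, were called 9 times each, always lower. MRPS27 had 170.3 and 147 CPM with sgGal4, 127 and 126 with sgDDX3, 162 and 150 with WT and 116 and 115 with T532M in nuclear-labelled libraries. MRPL34 and MRPS12 were called 8 times each, always higher, MRPL41 was called 6 times higher and 2 times lower, and MRPS22 1 time higher and 7 times lower. MRPL14, MRPL43, MRPL57, MRPS10, MRPS28 and MRPS36 were called in none, nor was MRPS24, which was tested in 9, the cytoplasmic-labelled ones of the transgene set. In all, of 77 members 35 were called only lower (45.5%, against 23.1% of all 18714 genes tested in any of these comparisons), 12 only higher (15.6% against 25.7%) and 23 in both directions (29.9% against 23.2%). Of all genes 13.9% were called 8 times or more, against 10.4% of members, and 3.56% were called 13 times or more, against 2.60% of members.

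Changes of the nuclear-labelled over cytoplasmic-labelled ratio were tested in fits of both fractions. With sgDDX3 no member was called with edgeR or DESeq2, where 2.37% of all genes were called and 4 members had an unadjusted p under 0.05. With sgCNOT1, 2 members were called (5.83% of all genes). MRPL41, found only in mitochondria, went from 57.0 and 63.9 to 46.6 and 39.3 CPM in the nuclear-labelled and from 16.1 and 23.5 to 31.5 and 37.7 CPM in the cytoplasmic-labelled libraries, in opposite directions (-1.29 ± 0.26, adjusted p = 0.0025, edgeR). MRPS30 went from 114 and 112 to 129 and 161 CPM and from 119.9 and 102 to 89.7 and 73.4 CPM (0.79 ± 0.21, adjusted p = 0.022). Its change within the cytoplasmic-labelled libraries was not called (adjusted p = 0.073, edgeR). With sgNUP160, MRPL40 was called (0.94 ± 0.28, adjusted p = 0.046, 3.66% of all genes), at 106 and 108 CPM with sgGal4 and 91.3 and 84.8 with sgNUP160 in nuclear-labelled libraries and at the cytoplasmic-labelled levels given above. Within the nuclear-labelled libraries MRPL40 was not called (adjusted p = 0.070, edgeR).

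Without transgene against WT 3 members were called, where 2.65% of all genes were, and the median ratio change was -0.22 for members and -0.05 for all genes. MRPS35, found only in mitochondria, had 78.6 and 74.5 CPM against 87.3 and 89.0 in nuclear-labelled and 31.4 and 22.2 against 17.1 and 15.4 in cytoplasmic-labelled libraries (-0.96 ± 0.22, adjusted p = 0.0045, edgeR). MRPS9 had 39.2 and 40.4 against 47.1 and 52.9, and 28.2 and 24.4 against 17.8 and 19.8 (-0.85 ± 0.23, adjusted p = 0.029). MRPL28 had 84.4 and 75.8 against 90.0 and 87.9, and 44.6 and 51.9 against 39.0 and 34.4 (-0.59 ± 0.17, adjusted p = 0.032). In each the cells without transgene were below WT in the nuclear-labelled and above WT in the cytoplasmic-labelled libraries, without overlap. Within 1 fraction, only MRPS35 in cytoplasmic-labelled and MRPS9 in nuclear-labelled libraries were called (adjusted p = 0.034 and 0.010, edgeR). Not called were MRPS35 in nuclear-labelled (adjusted p = 0.077), MRPS9 in cytoplasmic-labelled (0.21) and MRPL28 in nuclear-labelled and cytoplasmic-labelled libraries (0.20 and 0.10). None of the 6 ratio changes was called in every fit without 1 library. With sgCNOT1 the count was 16 when its cytoplasmic-labelled replicate 1 was left out and 0 when that of sgGal4 was. It was 1 without sgCNOT1 replicate 2 of either fraction or sgGal4 nuclear-labelled replicate 2. With sgNUP160 the call was lost without replicate 1 of either fraction of either group and without sgGal4 nuclear-labelled replicate 2. Without transgene the count was 6 without its cytoplasmic-labelled replicate 2, 0 without WT cytoplasmic-labelled replicate 2, and 1 without either nuclear-labelled replicate 2.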

How the data were processed

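Directional, rRNA-depleted libraries of fractionated K562 cells were used. Per the labels' protocols, cells were lysed with NP-40 and spun through a sucrose cushion, the supernatant giving the cytoplasmic-labelled and the pellet the nuclear-labelled RNA. The authors deposited raw read counts per gene in the STAR layout, without normalization. Per the submitters' processing notes, STAR 2.7.5a and GRCh38 were used, and no annotation release is given in the sources used here. Counts on the strand of the kit (column 4) were taken. Symbols were matched for 60652 of 60664 identifiers, 58396 in GENCODE 29, which also gave lengths and overlaps. Reads that STAR listed outside genes, as unmapped, multiply mapped, ambiguous or without a feature, were 58.4% to 74.0% of the cytoplasmic-labelled and 25.1% to 73.2% of the nuclear-labelled reads and entered no library size.

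These counts went into edgeR 4.0.16 under R 4.3.3 (TMM, default expression filter, robust quasi-likelihood, Benjamini-Hochberg over all genes tested, threshold 0.05), with 1 coefficient per genotype in separate fits for each set and fraction, and in fits of both fractions for ratios. After filtering, guide-set fits tested 16091 genes (cytoplasmic-labelled), 14324 (nuclear-labelled) and 17858 (both fractions), and transgene-set fits 17530, 14598 and 18969. SE is the absolute log2 change over the square root of F. In the same order the common biological coefficient of variation was 0.152, 0.0811 and 0.126 for guides and 0.0878, 0.0482 and 0.0695 for transgenes. Counts were also simulated from the mean over all libraries of a fit, with 1 common spread for every gene. Changes were placed only in genes above a minimum count. The shares recovered therefore do not cover members at low counts or with a wider spread. For sgDDX3 against sgGal4, changes of 1.5-fold and 2-fold were recovered in 7% and 64% (cytoplasmic-labelled, 15391 genes), 53% and 95% (nuclear-labelled, 13861 genes) and 1% and 21% (ratio, 16081 genes). For no transgene against WT these shares were 34% and 85% (16518 genes), 77% and 93% (13806 genes) and 24% and 70% (16610 genes). No replicate pair agreed within sampling noise (chi-square per degree of freedom at least 2.04, and highest for sgCNOT1 at 27.6 and 13.0 and cytoplasmic-labelled no transgene at 12.9, apart from the left-out library).

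Members, gene lists and tests were chosen with earlier results of these data known. Named in the text are up to 5 rises and 5 falls per comparison (all where 10 or fewer were called), the 5 highest and lowest levels and fraction ratios, the members called most often, MRPL11, MRPL12, MRPL58, MRPS12, MRPS30 and the MRPS18 paralogs, and up to 3 genes of other lists. The members of the 2 joint tests with most evidence were named after their values were seen. Alternatives were DESeq2 1.42.0, other scalings, no filter, a replicate block, 1 fit of all libraries, the left-out library put back, each library left out and, chosen after seeing the data, another gene length. Promoter sequences are from RefSeq (GRCh38.p14), with the first start listed per gene.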

Additional observations from a re-analysis of the deposited data

Results flagged for a closer look

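For 6 members the effect of a genotype differed between the labelled fractions by a test of the difference itself, the change in the log2 nuclear-labelled over cytoplasmic-labelled ratio (edgeR quasi-likelihood test, adjusted over all genes). With sgCNOT1 against sgGal4 this change was -1.29 ± 0.26 for MRPL41 (adjusted p = 0.0025) and 0.79 ± 0.21 for MRPS30 (adjusted p = 0.022). With sgNUP160 it was 0.94 ± 0.28 for MRPL40 (adjusted p = 0.046), a call lost with DESeq2 (0.80, adjusted p = 0.063), with relative log expression factors (0.80, adjusted p = 0.097) and with library size only (0.70, adjusted p = 0.14). Without transgene against WT it was -0.96 ± 0.22 for MRPS35 (adjusted p = 0.0045), -0.85 ± 0.23 for MRPS9 (adjusted p = 0.029) and -0.59 ± 0.17 for MRPL28 (adjusted p = 0.032). None of the 6 was called in every fit without 1 library, where the adjusted p of MRPL40 ran from 0.0099 to 0.26. In the sgNUP160 comparison the median change was 0.29 over the 76 members tested and 0.13 over all genes tested. The RNA content of the fractions, which runs against their labels, was not tested as a part of these changes.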

How the results depend on the processing

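Counts of called members depended on how the libraries were fitted and on single libraries. The values below are members called, in place of those in the report.

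With 1 fit of all libraries, the cytoplasmic-labelled counts were 13 for sgDDX3, 22 for sgCNOT1, 31 for sgNUP160, 29 for the difference among knockdowns, 2 for WT against uninfected, 2 for R326H, 1 for R351W and 2 for R534S. The nuclear-labelled counts were 4 for sgNUP160, 11 for no transgene against uninfected, 1 for no transgene against WT, 1 for WT against uninfected, 0 for G325E, 1 for R326H, 0 for R351W, 1 for R534S, 17 for T532M and 8 for the joint test of mutants. The ratio counts were 9 for sgNUP160 and 0 for no transgene against WT. DESeq2 gave 8 for sgCNOT1, 6 for sgNUP160, 5 for the difference among knockdowns, 0 for no transgene against WT, 1 for WT against uninfected, 1 for G325E, 0 for R326H, 0 for R351W and 1 for T532M in the cytoplasmic-labelled libraries, 7 for no transgene against WT, 4 for R351W, 7 for R534S and 13 for the joint test in the nuclear-labelled libraries, and 0 for the sgNUP160 ratio. With the left-out R376C library put back, 0 members were called in any nuclear-labelled comparison of the transgene set and in the ratio of no transgene against WT.

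Relative log expression factors, the scaling of DESeq2, gave 0 for the sgNUP160 ratio. Scaling by library size only gave 3 for sgNUP160, 0 for no transgene against WT and 1 for T532M (cytoplasmic-labelled), 16 for WT against uninfected (nuclear-labelled), 0 for the sgNUP160 ratio and 1 for the ratio of no transgene against WT. There the ratio of MRPL42 in uninfected cells turned to -0.056 (adjusted p = 0.61, edgeR). Without the expression filter the counts were 2 for sgDDX3, 0 for R326H, 1 for R351W and 1 for T532M (cytoplasmic-labelled), 7 for sgNUP160 (nuclear-labelled) and 2 for its ratio.

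Same-numbered replicates mostly did not deviate together (correlation of deviations -0.164 to 0.264 between genotypes, and -0.340 to 0.026 between the fractions of a genotype), so the numbers were not taken as pairs. The values furthest from 0 were both in the guide set, 0.264 between cytoplasmic-labelled groups and -0.340 between fractions. A replicate block gave 3 for sgDDX3, 19 for sgNUP160 and 1 for T532M (cytoplasmic-labelled) and 1 for R376C (nuclear-labelled), and moved no other count by more than 1.5 times. The causes of these differences were not tested.

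Leaving out 1 library at a time, cytoplasmic-labelled counts ranged from 0 to 0 for sgDDX3, 1 to 26 for sgCNOT1, 0 to 1 for sgNUP160, 4 to 28 for the difference among knockdowns, 8 to 26 for no transgene against uninfected, 0 to 4 for no transgene against WT, 1 to 1 for WT against uninfected, 0 to 1 for G325E, R326H and R351W, 0 to 2 for R534S and 1 to 2 for T532M. Nuclear-labelled counts ranged from 15 to 23 for sgDDX3, 26 to 42 for sgCNOT1, 3 to 6 for sgNUP160, 35 to 53 for the difference among knockdowns, 20 to 24 for no transgene against uninfected, 6 to 8 for no transgene against WT, 6 to 7 for WT against uninfected, 5 to 8 for G325E, 7 to 8 for R326H and R534S, 2 to 4 for R351W, 0 to 1 for R376C, 20 to 28 for T532M and 17 to 24 for the joint test. Ratio counts ranged from 0 to 16 for sgCNOT1, 0 to 1 for sgNUP160 and 0 to 6 for no transgene against WT. A group left with 1 library is assumed to vary like the other groups. Cytoplasmic-labelled libraries had a median depth of 5239670 gene counts, below the 9322280 of nuclear-labelled ones, so counting error is larger there.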

Other observations

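Genes that act on the mitochondrial ribosome were followed in the nuclear-labelled libraries beside its proteins, with changes as log2 fold changes called by edgeR over all genes. Of 15 mitochondrial translation factors tested with sgDDX3, 6 fell and 1 rose, where 14.9% of all genes were lower and 16.4% higher, among them SLIRP (-0.64), which stabilises mitochondrial mRNAs, MRRF (-0.62), the ribosome recycling factor, and MTIF3 (-0.56), an initiation factor, while GFM2 rose (0.39). Of 16 genes of mitochondrial DNA expression 2 fell, a share (12.5%) near that of all genes, TFAM (-0.61), which packs mitochondrial DNA, and MTPAP (-0.49), the mitochondrial poly(A) polymerase, and POLRMT, the mitochondrial RNA polymerase, rose (0.42). MYC, a transcription factor known to promote ribosome production, fell by 0.79 ± 0.08 on the log2 scale with sgDDX3 in the nuclear-labelled libraries and by 0.80 ± 0.06 without transgene against uninfected cells. ESRRA (0.78) and YY1 (0.44) rose with sgDDX3. Other regulators are not listed here, so MYC, ESRRA and YY1 do not show how such genes moved as a set.

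Without transgene, 9 of the 16 genes of mitochondrial DNA expression rose against uninfected cells, where 19.7% of all genes did, with a median of 0.30 over the 16 and -0.01 over all genes, and NOA1, a GTPase of small-subunit assembly, fell by 0.89. With sgCNOT1, 10 of 26 assembly factors fell and 5 rose (38.5% and 19.2%), where 23.1% of all genes fell and 26.5% rose, with the largest changes in MTG1 (-1.35), a GTPase, MRM1 (-1.15), an rRNA methyltransferase, and RBFA (-1.07), a small-subunit maturation factor. GFM1, an elongation factor, rose (0.94) and MRRF fell (-1.06).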
